A study of Saccharomyces cerevisiae with 63 samples.

Results

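The 28 ATG genes of budding yeast were followed through meiosis in 63 libraries of polyadenylated RNA. The set held every gene whose name in the deposited count table was ATG followed by a number, apart from identifiers that start with YCR, which left out 1 gene and kept 28 of 6088. All 28 had enough reads to be tested, and all 28 matched a gene of the same name and start position in the R64 reference annotation. Every library came from diploid SK1 cells in which the promoter of IME1, the gene that starts the meiotic programme, had been exchanged for a copper-inducible one (pCUP-IME1). The strain called WT carried this change too, so that it was wild type only at the genes mutated in the other 2 strains. IME4, mutated in the ime4 strain, codes for the methyltransferase that places m6A on mRNA, and PHO92, mutated in the pho92 strain, codes for an m6A reader of the YTH family. How the mutant alleles were made, and whether each strain was a single clone, is not given in the sources used here. Cells were moved to sporulation medium with 0.3% potassium acetate at 0 h, received 50 µM copper sulfate at 2 h and were collected at 0, 2, 3, 5, 6, 7 and 9 h, with 3 biological replicates per strain and time.

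Autophagy encloses cytoplasm or organelles in a double membrane and delivers them to the vacuole, where hydrolases break them down. The Atg1 kinase complex starts the process, a phosphatidylinositol 3-kinase complex and the Atg9, Atg2 and Atg18 proteins bring and expand the membrane, and a pair of ubiquitin-like systems attaches Atg8 to that membrane. Receptors tie selected cargo to Atg8, and autophagy is known to be needed for sporulation of yeast.

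The strain labels were checked against the mutated genes. IME4 read between 0 and 2.37 CPM (counts scaled to a fixed library total) in the 21 ime4 libraries and between 37.4 and 365.5 CPM in WT. PHO92 read at most 4.27 CPM in the pho92 libraries and reached 2232 CPM in WT. IME1 itself averaged 2209 ± 571.5 CPM (SD, n = 3) in WT at 0 h, 3428 ± 59.8 CPM at 2 h before copper and 2728 ± 708 CPM at 3 h after it, so its level was already high without copper. The early meiotic genes IME2 and REC8 averaged 81.0 and 6.17 CPM in WT at 0 h, 575 and 471.5 CPM at 2 h and 2797 and 3098 CPM at 3 h. Of the genes that diploids keep low, MFA1, MFA2, MF(ALPHA)1, STE2, HO and RME1 stayed at or below 52.9 CPM in every library. GPA1 reached 86.9 CPM, STE3 191 CPM and STE4 553.5 CPM. Libraries held 12826747 to 33048881 counts. The 100 most abundant genes took 26.3% to 26.6% of the counts in WT at 3 h, 54.3% to 58.5% in WT at 7 h and 24.8% to 26.4% in ime4 at 7 h. Levels below are CPM after trimmed mean of M-values (TMM) scaling, whose factors ran from 0.387 in WT at 7 h to 1.53 in ime4 at 3 h. Because that scaling moves with strain and time, each comparison was repeated with libraries scaled by their total counts alone. The median log2 fold change of all genes then went from -0.19 to -1.29 for WT at 6 h against 3 h, from 0.20 to 1.98 for ime4 against WT at 7 h, and from 0.06 to 0.90 for pho92 against WT at 7 h. Shares of all genes printed below are those of the TMM fit to all libraries. They were not counted with total-count scaling, with replicates left out or in any other alternative fit. Counts from those fits therefore have no such share beside them. Calls are genes with an adjusted p below 0.05 in edgeR's quasi-likelihood test over all 5822 genes tested, and a change is said to hold under both scalings where it was called with the same sign in each. In these bulk samples, fewer cells in a given stage and less RNA per cell cannot be told apart.

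The promoters of ATG8 and ATG32 are shown because these genes had the highest peaks of the set in what follows. Each window runs from 250 bases before to 50 bases after the start of the coding sequence on the R64 genome and reads 5′ to 3′ on the gene's strand. ATG8 lies on the minus strand at chrII:80682-80981 and ATG32 on the minus strand at chrIX:75724-76023. Capitals mark matches, on either strand, to GGCGGC (the core of the site of the repressor Ume6), GATAAG (the site of nitrogen-responsive zinc-finger factors), TGACTC (Gcn4) and CACAAA (part of the middle sporulation element bound by Ndt80).
ATG8: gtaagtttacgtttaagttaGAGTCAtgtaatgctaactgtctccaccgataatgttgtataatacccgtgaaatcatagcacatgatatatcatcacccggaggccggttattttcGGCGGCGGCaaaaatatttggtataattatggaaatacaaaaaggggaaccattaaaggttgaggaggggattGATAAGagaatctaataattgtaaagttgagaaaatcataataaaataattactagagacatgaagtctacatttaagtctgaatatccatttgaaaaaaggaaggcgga
ATG32: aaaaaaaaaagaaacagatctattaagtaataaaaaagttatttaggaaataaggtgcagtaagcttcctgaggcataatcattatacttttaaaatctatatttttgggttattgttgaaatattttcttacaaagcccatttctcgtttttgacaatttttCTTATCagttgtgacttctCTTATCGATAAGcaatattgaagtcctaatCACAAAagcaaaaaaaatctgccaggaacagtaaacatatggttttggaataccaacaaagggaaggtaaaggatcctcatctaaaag

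GGCGGC was present in 2 of the 28 ATG windows, that of ATG8 among them, and in 5.1% of the 6001 windows of the same length in the genome. In ATG8 it occurred as 2 overlapping copies 133 and 130 bases before the start. GATAAG was present in 8 of the 28 windows against 14.7% genome-wide, with 3 copies in ATG32, of which 2 lie end to end. CACAAA was present in 4 windows, those of ATG1, ATG29, ATG32 and ATG33, against 18.8% genome-wide. TGACTC was present in 6 windows against 8.0%. A match is a run of letters and not a measured binding site. The study's cells are SK1, and the reference is another strain.

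In WT the ATG transcripts did not move together. Summed over the 28 genes, the level was 2749.9 ± 164 CPM (SD, n = 3) at 0 h, 4728 ± 25.4 CPM at 3 h, 18596 ± 540.2 CPM at 7 h and 9286 ± 916 CPM at 9 h. With libraries scaled by total counts the sum was 2522.5, 6490.5, 7445 and 7351 CPM at the same times. A group of genes led by ATG8, ATG32 and ATG1 made up most of the sum at 7 h, while other genes, among them ATG7, ATG9, ATG13 and ATG19, had their highest mean at 5 h or before. Of the 28 genes, 12 had their highest WT mean at 7 h, 12 at 5 h or before, 1 at 6 h and 3 at 9 h. With total-count scaling 3 peaked at 7 h and 15 at 3 h, so the time of the peak depended on the scaling for many genes. In each strain peak times were counted for the 28 genes only. No share of all genes stands beside these counts, so they are not shown to be particular to ATG genes.

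**Figure D1:**
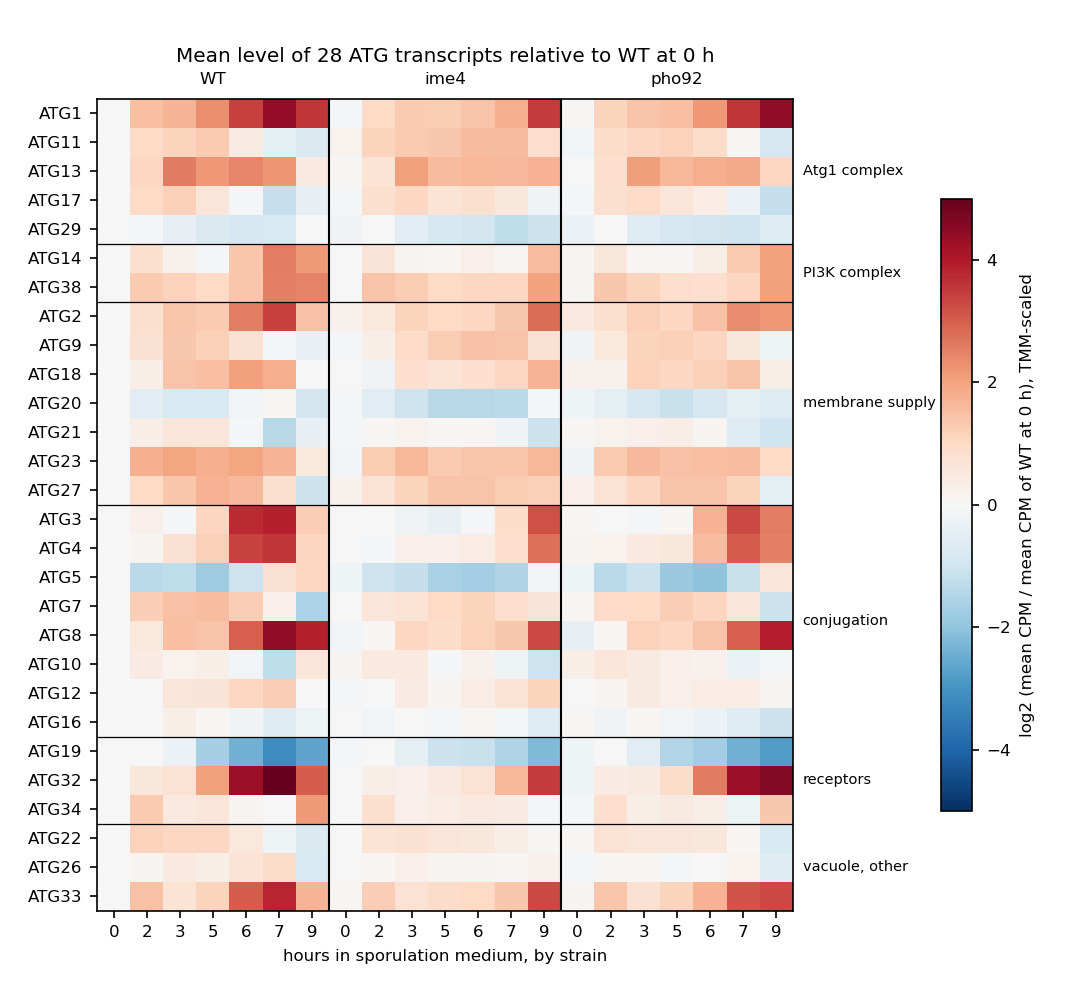
Mean TMM-scaled level of each of the 28 ATG genes (rows, by role) in 3 strains at 7 times (columns), as log2 of the ratio to the WT mean at 0 h. ATG32 and ATG8 in WT at 7 h stand 33.0-fold and 21.6-fold above their 0 h means, and ATG19 falls from a mean of 367 to 41.8 CPM in WT.

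Between 0 and 2 h, in acetate medium before copper, 17 ATG genes were higher and 2 lower, against 26.6% higher, 30.4% lower and 56.9% called in all among all genes, and all 19 held under both scalings. The median log2 fold change of the 28 genes was 0.65, and that of all genes -0.03. Of the 5 genes of the set in the Atg1 complex, 4 rose. ATG1 itself, the kinase, read 157, 145 and 118 CPM at 0 h and 401, 422 and 361 CPM at 2 h, a log2 fold change of 1.49 ± 0.23 (SE, adjusted p = 2.42e-07). The 3 libraries at 2 h all lay above the 3 at 0 h. Both genes of the set in the phosphatidylinositol 3-kinase complex rose. ATG38, which stabilises the complex, rose by 1.32 ± 0.13, and ATG14, which brings it to the site of autophagosome formation, by 0.79 ± 0.18. VPS30, VPS34 and VPS15 of the same complex were not in the set and were counted in the list of partners given below. Of the 7 membrane supply genes 5 rose, among them ATG23, which takes part in Atg9 traffic, by 1.78 ± 0.12, and ATG9, whose product sits in the vesicles that seed the membrane, by 0.75 ± 0.12. ATG20, a sorting nexin gene, was lower by -0.53 ± 0.12, a call lost without replicate 2 of every strain (-0.43, adjusted p = 0.0527). ATG33, a mitochondrial outer membrane protein gene needed for mitophagy, rose by 1.46 ± 0.21. In the conjugation systems 3 of 8 rose and ATG5, the partner of Atg12, fell from 127, 199 and 183 CPM to 57.1, 71.7 and 69.4 CPM (log2 fold change -1.36 ± 0.22, adjusted p = 1.16e-06). ATG8 rose by 0.54 ± 0.23 (adjusted p = 0.0424), which was no longer called when WT replicate 2 (0.51, adjusted p = 0.162) or WT replicate 3 (0.53, adjusted p = 0.129) was left out.

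In the hour after copper, 9 ATG genes were higher and 5 lower at 3 h than at 2 h, against 36.3% and 29.3% of all genes (65.6% in all). With total-count scaling 18 were higher and 1 lower, with a median log2 fold change of 0.55 beside 0.45 for all genes. Without replicate 2 of every strain 8 were called in all with TMM scaling. The 9 higher genes held under both scalings, and of the lower ones ATG33 did (-0.79 ± 0.21). ATG13, the regulatory subunit of the Atg1 kinase, went from 110.4, 97.6 and 95.7 CPM to 288.2, 298 and 311 CPM (1.56 ± 0.12, adjusted p = 8.7e-15). ATG18, a phosphoinositide-binding protein gene, rose by 1.09 ± 0.13, ATG8 by 0.97 ± 0.23 and ATG4, the protease that trims Atg8, by 0.61 ± 0.22, the last call being lost without WT replicate 1 (adjusted p = 0.07) or WT replicate 2 (adjusted p = 0.091). ATG34, a receptor gene, was lower by -0.81 ± 0.17 with TMM scaling and not called with total counts (-0.45), and ATG14 likewise (-0.57 ± 0.18 and -0.21). ATG19 was at -0.34 ± 0.14 with TMM and 0.02 with total counts.

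Between 3 and 6 h the ATG genes went both ways, as did the genes tested in general, so the mix of directions was not particular to the set. With TMM scaling 11 ATG genes were higher and 8 lower, against 33.5% higher and 43% lower among all genes (76.5% in all). With total counts 5 were higher and 20 lower, with a median log2 fold change of -0.92 beside -1.29 for all genes. The 5 that rose under both scalings were ATG3, ATG32, ATG4, ATG33 and ATG1, and the 8 that fell under both were ATG19, ATG17, ATG21, ATG11, ATG9, ATG22, ATG16 and ATG29. ATG3, the E2 enzyme that passes Atg8 to its lipid, read 97, 84.9 and 88.4 CPM at 3 h and 1479, 1237 and 947 CPM at 6 h. Its log2 fold change was 3.76 ± 0.31 with TMM (adjusted p = 1.37e-14) and 2.62 with total counts. ATG32, the mitophagy receptor gene, read 204, 183 and 177 CPM at 3 h and 2831, 2181 and 1677 CPM at 6 h, a log2 fold change of 3.57 ± 0.31. In neither gene did the libraries of the 2 times come near each other. ATG4 rose by 2.6 ± 0.23, ATG33 by 2.36 ± 0.22 and ATG1 by 1.73 ± 0.23. ATG8 read 565, 533 and 605 CPM at 3 h and 1992, 1603 and 1131 CPM at 6 h (1.47 ± 0.23), but with total counts its change was 0.33 and not called, and ATG14, called higher with TMM at 1.16 ± 0.18, was at 0.02.

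**Figure D2:**
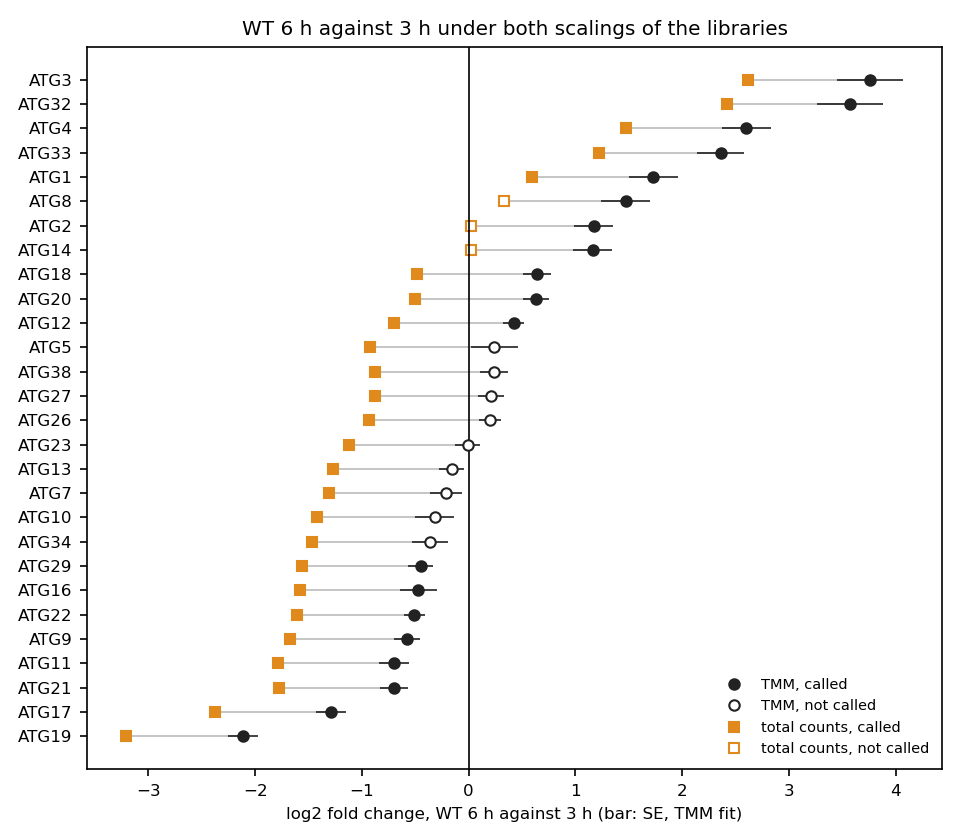
Log2 fold change of each ATG gene between 3 and 6 h in WT, with TMM scaling (circles, bars are the SE) and with total-count scaling (squares), filled where the gene was called. All 28 values shift to the left with total counts, from 3.76 to 2.62 for ATG3 and from -2.11 to -3.21 for ATG19.

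Among the genes that fell over the same interval, ATG19, the receptor gene of the cytoplasm-to-vacuole targeting pathway, went from 281, 279.8 and 328 CPM to 63.9, 71.3 and 70.5 CPM (-2.11 ± 0.14, adjusted p = 5.33e-17). ATG17, the scaffold of the starvation-induced Atg1 complex, fell by 1.29 on the log2 scale, ATG11, the scaffold of selective autophagy, by 0.70, ATG21, a relative of ATG18, by 0.70, and ATG9 by 0.58. Within the Atg1 complex, ATG1 rose, ATG13 was at -0.16 ± 0.12 and not called, and ATG11, ATG17 and ATG29 fell. ATG29 overlaps SET6 on the opposite strand by 24 bases, and the strand setting of the counting is not given in the sources used here.

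At 7 h ATG8 read 4573, 4322 and 4030.0 CPM in WT, the highest level of any ATG gene in the course. ATG32 read 3817, 3899.6 and 3691 CPM at that time, and ATG1 3471, 2769.6 and 2553 CPM. From its lowest to its highest WT mean ATG32 spanned a 33.0-fold range, ATG8 21.6-fold and ATG1 20.9-fold, and with total counts 14.4-fold, 12.8-fold and 10.3-fold. ATG16 spanned 1.84-fold and ATG29 1.80-fold with TMM scaling, but 6.3-fold and 4.38-fold with total counts. Per kb of gene and averaged over all libraries, ATG8 had the highest level at 2823 CPM per kb, followed by ATG33 at 973 and ATG32 at 502, and ATG10, the E2 enzyme of Atg12, had the lowest at 13.1. In the other roles the highest per-kb means were those of ATG1 at 316 in the Atg1 complex, ATG27, an Atg9 traffic gene, at 154 in membrane supply and ATG38 at 86.7 in the phosphatidylinositol 3-kinase complex.

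**Figure D3:**
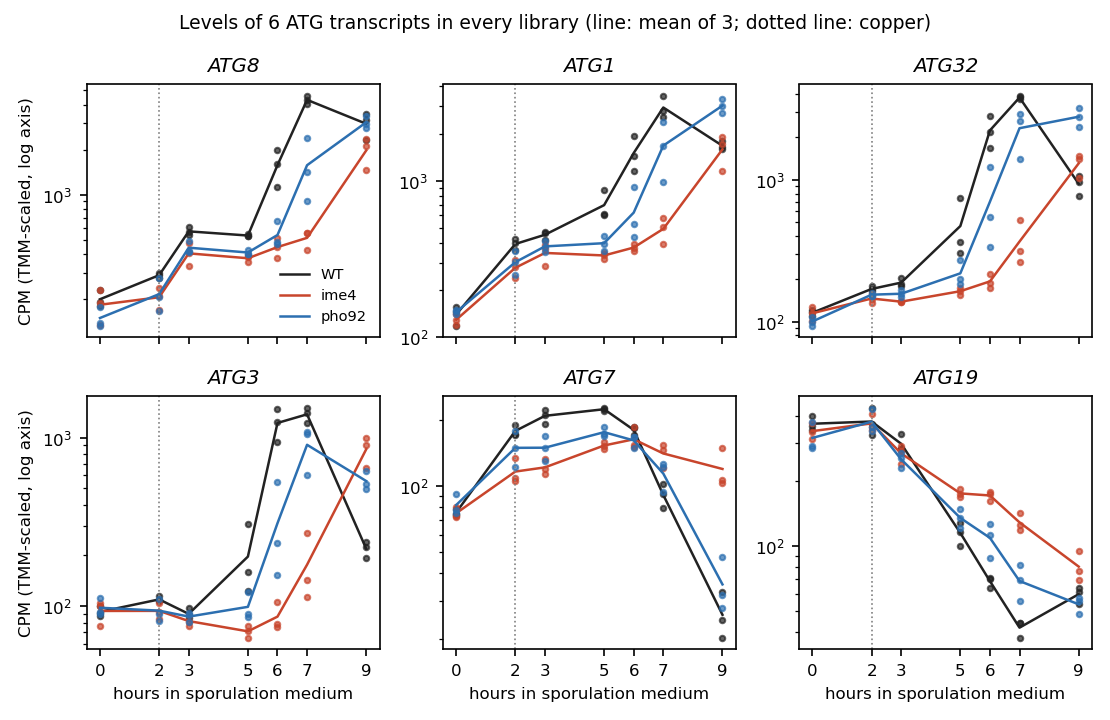
TMM-scaled CPM (log axis) of 6 ATG genes in every library against hours in sporulation medium, by strain, with lines through the means of 3 libraries and a dotted line at the addition of copper. At 6 h the WT libraries of ATG8, ATG1, ATG32 and ATG3 lie above all mutant libraries, and at 9 h the mean of ATG7 is 25.9 CPM in WT and 119 CPM in ime4.

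Between 6 and 9 h, 7 ATG genes were higher and 18 lower, against 34% and 45.9% of all genes (79.9% in all), and 7 and 16 of these held under both scalings. ATG7, the E1 enzyme of both conjugation systems, fell from 169.8, 185 and 183 CPM to 32.8, 20.4 and 24.5 CPM (-2.79 ± 0.16), and ATG27 from 169, 201 and 198 CPM to 33.6, 25.5 and 29.7 CPM (-2.68 ± 0.13). ATG3 and ATG4 fell by 2.48 and 2.30 on the log2 scale. ATG9 fell from 126, 147 and 151 CPM to 65.1, 66.7 and 61.1 CPM. All 7 membrane supply genes and all 3 of the vacuole and other group were lower. ATG34, whose product carries alpha-mannosidase to the vacuole in starved cells, rose from 296, 325 and 323 CPM to 1219.8, 1280.2 and 1300.0 CPM (2.01 ± 0.18). ATG5 was higher by 2.06 ± 0.23, ATG38 by 1.10 ± 0.13, ATG8 by 0.92 ± 0.23 and ATG14 by 0.75 ± 0.18. Leaving out WT replicate 3 ended the call of ATG8 (0.55, adjusted p = 0.0798).

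At 0 h no ATG gene was called between ime4 and WT by edgeR (0 of 28, 0 at an unadjusted p under 0.05, and 0 by DESeq2, against 0.258% of all genes called, 0.155% higher and 0.103% lower), with log2 fold changes from -0.20 to 0.21. At 2 h 6 ATG genes were lower, while of all genes 6.7% were lower and 5.67% higher (12.4% in all), and with total counts 0 of the 28 were called. At 3 h 8 were lower, while of all genes 15.9% were lower and 14.8% higher (30.6% in all), and ATG7, ATG13 and ATG18 held under both scalings. These small counts changed when libraries were left out, and fewer libraries also make a call of any gene harder. At 2 h 3 genes were called when WT replicate 2 was left out, 1 when ime4 replicate 2 was, and 0 without replicate 2 of every strain. At 3 h 3 were called when WT replicate 2 was left out, 4 when ime4 replicate 2 was, 1 when replicate 2 of every strain was, and 5 without WT replicate 1, ime4 replicate 1, replicate 1 of every strain or WT replicate 3. ATG7 read 222, 210.1 and 192 CPM in WT at 3 h and 119, 113 and 132 CPM in ime4 (-0.78 ± 0.15, adjusted p = 0.000115), so that the 3 libraries of each strain did not overlap.

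More genes were called from 5 h on. At 5 h 1 ATG gene was higher in ime4 and 13 were lower, against 23.4% and 26% of all genes (49.5% in all), and with total counts 2 and 6. ATG32 read 741, 367 and 306 CPM in WT and 165, 154 and 171 CPM in ime4 (-1.53 ± 0.28). WT replicate 1 stood well above the other WT libraries, and no ime4 library reached the lowest of them. ATG3 was lower by -1.47 ± 0.29, ATG1 by -1.07 ± 0.22 and ATG4 by -0.94 ± 0.22, each under both scalings, and ATG19 was the gene that was higher (0.61 ± 0.14).

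At 6 h 4 ATG genes were higher and 16 lower in ime4, against 43.6% and 34.5% of all genes (78.1% in all), and at 7 h 11 were higher and 17 lower, against 44.9% and 37.5% (82.4% in all). With total counts the split was 18 higher and 7 lower at 6 h, and 18 and 9 at 7 h. The median log2 fold change with total counts was 0.58 for the 28 genes and 1.35 for all genes at 6 h. At 7 h these medians were 1.23 and 1.98, so genes in general moved up with that scaling. Lower under both scalings at 6 h were ATG1, ATG2, ATG3, ATG4, ATG8, ATG32 and ATG33, and higher under both were ATG9, ATG11, ATG17 and ATG19. ATG3 read 1479, 1237 and 947 CPM in WT at 6 h and 78.2, 75.8 and 106 CPM in ime4 (-3.81 ± 0.31, adjusted p = 9.21e-15). ATG32 read 2831, 2181 and 1677 CPM in WT and 186, 174 and 216 CPM in ime4 (-3.54 ± 0.31). ATG4 was lower by -2.98 ± 0.24 and ATG33 by -2.03 ± 0.21. ATG1 read 1917, 1441 and 1147 CPM in WT and 396, 355 and 372 CPM in ime4. In none of these genes did a library of ime4 reach the lowest of WT. ATG14 was called lower with TMM at 6 h (-1.12 ± 0.18) and was at 0.07 with total counts, while at 7 h it was lower under both (-2.44 ± 0.19).

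At 7 h ATG8 read 557, 426 and 557 CPM in ime4 against 4573, 4322 and 4030.0 CPM in WT (-3.07 ± 0.25, adjusted p = 2.52e-15). ATG11 stood at 165, 153 and 182 CPM in ime4 and at 42.5, 41.2 and 37.5 CPM in WT (2.05 ± 0.15). ATG17 was higher by 1.72 ± 0.15, ATG19 by 1.62 ± 0.14 and ATG9 by 1.51 ± 0.12, and these 4 genes were higher at 6 h as well. The ime4 contrast at 6 h shares its WT libraries with the contrast of 6 h against 3 h in WT. NDT80, which encodes the transcription factor of the middle meiotic genes, moved beside these differences. It averaged 5424 ± 884 CPM in WT and 432 ± 155.5 CPM in ime4 at 6 h, and 6269 ± 229 and 1009.9 ± 459 CPM at 7 h. IME2 averaged 10689 CPM in WT and 2712 CPM in ime4 at 6 h. The part of meiotic stage in the ATG differences was not tested.

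At 9 h 16 ATG genes were higher and 9 lower in ime4, against 46.9% and 33.3% of all genes (80.2% in all), and 15 and 9 held under both scalings. ATG27 read 136, 156 and 136 CPM in ime4 and 33.6, 25.5 and 29.7 CPM in WT (2.27 ± 0.13), and ATG7 was higher by 2.20 ± 0.16. ATG3 read 908, 661 and 992 CPM in ime4 against 224, 194 and 239.6 CPM in WT (1.96 ± 0.29), having been lower than WT by 3.81 on the log2 scale 3 h before. ATG18 was higher by 1.71 ± 0.13 and ATG9 by 1.15 ± 0.12. ATG34 read 229.6, 340.1 and 254 CPM in ime4 against 1219.8, 1280.2 and 1300.0 CPM in WT (-2.21 ± 0.18). ATG10, ATG5, ATG29, ATG14 and ATG8 were lower by -1.59 ± 0.19, -1.20 ± 0.22, -1.05 ± 0.12, -0.58 ± 0.18 and -0.59 ± 0.23. The ATG8 libraries of the 2 strains overlapped, and leaving out WT replicate 2 (adjusted p = 0.126), WT replicate 3 (adjusted p = 0.192) or ime4 replicate 2 (adjusted p = 0.0588) ended its call. The ATG14 call was lost without replicate 2 of every strain (-0.46, adjusted p = 0.131). NDT80 at 9 h averaged 1014 ± 92 CPM in WT and 3271 ± 608 CPM in ime4. In ime4, 14 of the 28 genes had their highest mean at 9 h, the last time sampled, with TMM scaling and 8 with total counts, while 6 and 9 had it at 3 h.

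**Figure D4:**
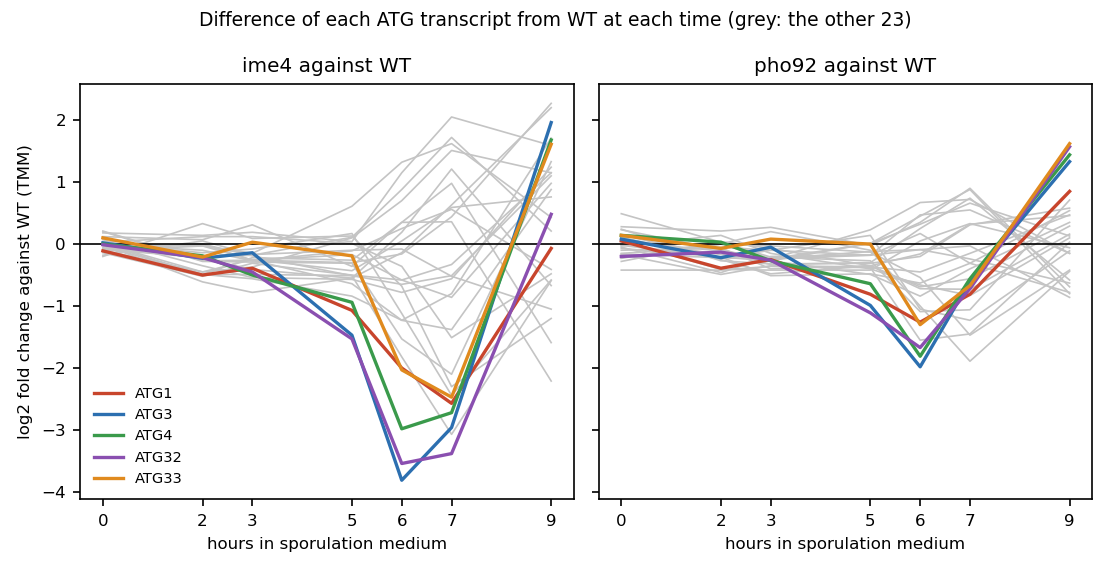
Log2 fold change of each ATG gene against WT at each time (TMM scaling) in ime4 and in pho92, with ATG1, ATG3, ATG4, ATG32 and ATG33 coloured and the other 23 genes in grey. In ime4 the coloured genes reach -3.81 at 6 h, in pho92 -1.98, and at 9 h all but ATG1 in ime4 lie above 0.

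The pho92 comparisons use the WT libraries of the ime4 comparisons, and the difference between the mutants was not tested. At 0 h 1 ATG gene was higher, while of all genes 10.9% were higher and 7.15% lower (18.1% in all). It was ATG2, a lipid transfer protein gene, at 66.9, 60.8 and 77.4 CPM in pho92 and 53.5, 48.8 and 44.2 CPM in WT (0.49 ± 0.18, adjusted p = 0.0482). That call was lost without WT replicate 2, WT replicate 3, pho92 replicate 2 or pho92 replicate 3, and without WT replicate 1 the count was 2. At 2 h ATG23 and ATG22, a vacuolar amino acid transporter gene, were lower, 2 genes, while of all genes 3.9% were lower and 8.47% higher (12.4% in all), and with total counts 0 were called. Leaving out pho92 replicate 1 gave 5, WT replicate 2 gave 1, and replicate 2 or replicate 3 of every strain gave 0. At 3 h 5 were lower, while of all genes 7.64% were lower and 10.3% higher (17.9% in all), and with total counts 1, ATG13 (-0.51 ± 0.12 with TMM). Without WT replicate 2 that count was 2, without pho92 replicate 2 or pho92 replicate 3 it was 3, and without replicate 2 or replicate 3 of every strain it was 1. DESeq2 called 8, and a fit of the compared libraries only called 12, with the share of all genes counted in neither.

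At 5 h 12 ATG genes were lower in pho92 and 0 higher (0 also by DESeq2 and at an unadjusted p under 0.05), against 16.3% lower and 17.3% higher (33.6% in all) among all genes. With total counts 4 were lower, ATG32 (-1.11 ± 0.28 with TMM), ATG3 (-0.99 ± 0.28), ATG1 (-0.81 ± 0.22) and ATG4 (-0.64 ± 0.22), and 1 higher. WT replicate 1 at 5 h was the highest of the 3 WT libraries in these 4 genes, for example at 308 CPM for ATG3 beside 159.5 and 124 CPM. Without it 5 genes were called, and none of the 4 was among those called at an adjusted p under 0.05 (0.0589 to 0.241). Without replicate 1, 2 or 3 of every strain the count was 6, 4 or 7.

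At 6 h 4 ATG genes were higher and 16 lower in pho92, against 37.8% and 33% of all genes (70.7% in all). With total counts 14 were higher and 6 lower, with a median log2 fold change of 0.26 beside 0.97 for all genes. ATG3 read 542, 237 and 153 CPM in pho92 (-1.98 ± 0.29), ATG32 1222, 545 and 333 CPM (-1.67 ± 0.28) and ATG8 664, 479 and 466 CPM (-1.55 ± 0.23). In these 3 genes pho92 replicate 1 was the highest of its group and still below every WT library at 6 h. ATG4 was lower by -1.81 ± 0.23, ATG33 by -1.30 ± 0.21, ATG1 by -1.26 ± 0.23 and ATG14 by -1.05 ± 0.18, the last not under total counts (-0.20). ATG19, ATG11, ATG17 and ATG9 were higher by 0.67 ± 0.14, 0.47 ± 0.14, 0.45 ± 0.14 and 0.32 ± 0.12. The ATG9 call was lost with DESeq2 (0.23, adjusted p = 0.0719), without WT replicate 1 (0.25, adjusted p = 0.121) and without pho92 replicate 2 (0.25, adjusted p = 0.109), and the ATG17 call without WT replicate 1 (0.34, adjusted p = 0.0529).

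At 7 h 8 ATG genes were higher and 14 lower in pho92, against 34.7% and 28.1% of all genes (62.8% in all). The split was 16 higher and 5 lower with total counts, and 6 and 17 with DESeq2's size factors in edgeR and with DESeq2 itself. Lower under both TMM and total counts were ATG5 (-1.89 ± 0.23), ATG38 (-1.47 ± 0.13), ATG8 (-1.45 ± 0.23), ATG14 (-1.23 ± 0.18) and ATG2 (-1.06 ± 0.18). ATG8 read 2385, 1422 and 913 CPM in the 3 pho92 libraries, with an SD of 747 CPM beside 272 CPM in WT. ATG32 was at 2931, 2600.5 and 1401 CPM in pho92, below each WT library (-0.72 ± 0.28) but at 0.04 with total counts. ATG10, ATG17, ATG21, ATG19 and ATG9 were higher by 0.90 ± 0.21, 0.88 ± 0.15, 0.74 ± 0.14, 0.72 ± 0.14 and 0.66 ± 0.12. ATG10 had few reads, with highest means of 9.08 CPM in WT and 9.17 CPM in pho92, and its lowest mean in both strains was at 7 h. Its call was lost in a fit of the compared libraries only (0.88, adjusted p = 0.0515).

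At 9 h 12 ATG genes were higher and 7 lower in pho92, against 32.4% and 24.8% of all genes (57.1% in all). With total counts 5 were higher and 15 lower, with a median log2 fold change of -0.33 beside -0.38 for all genes. The 5 that were higher under both were ATG33 (1.62 ± 0.21), ATG32 (1.57 ± 0.28), ATG4 (1.44 ± 0.22), ATG3 (1.33 ± 0.29) and ATG1 (0.85 ± 0.22). ATG32 read 2372, 3222 and 2758 CPM in pho92 and 772, 970.1 and 1069.5 CPM in WT, so that the groups stood apart. ATG16, a partner of the Atg12 and Atg5 conjugate, ATG17, ATG34 and ATG10 were lower by -0.86 ± 0.18, -0.80 ± 0.15, -0.78 ± 0.17 and -0.69 ± 0.18. Without replicate 2 of every strain the calls of ATG1 (0.76, adjusted p = 0.0715) and ATG10 (-0.56, adjusted p = 0.0646) were lost. ATG8, at 2797, 3359 and 2992 CPM in pho92 beside 2306, 3172 and 3461 CPM in WT, was at 0.03 ± 0.23 and not called with TMM, and at -0.41 and lower with total counts. In pho92 8 genes had their highest mean at 9 h and 4 at 3 h with TMM scaling, and 5 and 13 with total counts. NDT80 in pho92 averaged 1331 ± 767 CPM at 6 h, 3369.9 ± 923 CPM at 7 h and 2498 ± 272.5 CPM at 9 h, beside the WT means of 5424, 6269 and 1014 CPM, and its part in the ATG differences was not tested.

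The difference from WT varied over the 7 times in 28 of 28 ATG genes for ime4 and in 28 of 28 for pho92 (F test of 6 contrasts). The share of all genes was 96.3% for ime4 and 90.6% for pho92, so that the ATG genes were near the background in this respect. By the adjusted p-values of the authors' deposited table, 4 ATG genes were higher and 17 lower in ime4 at 6 h. In pho92 at 6 h 3 were higher and 17 lower. At some other times of pho92 the authors' counts differed more from those above. They were 8 lower at 3 h, 14 lower at 5 h, and 6 higher and 17 lower at 7 h. Shares of all genes were not counted for the authors' p-values.

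Ratios of counts within a library do not depend on how libraries are scaled. ATG3 and ATG7 encode the E2 and the E1 enzyme of Atg8 conjugation. In WT there were 0.437, 0.404 and 0.462 ATG3 counts per ATG7 count at 3 h, 8.71, 6.68 and 5.16 at 6 h and 13.4, 17.5 and 14.8 at 7 h. In ime4 the ratio was 0.521, 0.495 and 0.577 at 6 h and 1.19, 0.78 and 1.77 at 7 h, and it reached 8.83, 4.45 and 9.33 at 9 h. In pho92 it was 3.64, 1.42 and 0.918 at 6 h and 11.2, 8.79 and 4.79 at 7 h. At 6 and 7 h every pho92 library lay between the ime4 and WT libraries. At 9 h the pho92 libraries, at 15.5, 19.1 and 13.4, lay above those of WT, at 6.81, 9.5 and 9.76, and the ime4 and WT libraries overlapped. The ratio of ATG1 to ATG17, kinase to scaffold, averaged 5.46 ± 0.455 in WT at 3 h and 184 ± 32.8 at 7 h. The 7 h average of ime4 was 9.33 ± 1.35 and that of pho92 63.4 ± 38.6, and at 9 h the averages were 62.3 ± 9.89 in WT, 53.8 ± 21.7 in ime4 and 195.5 ± 36.7 in pho92.

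**Figure D5:**
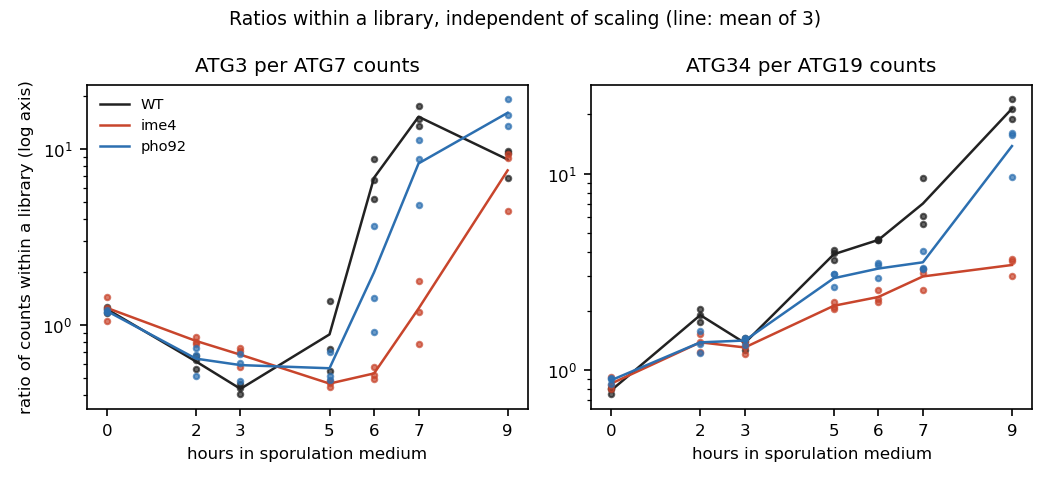
Ratio of counts within a library (log axis) against hours in sporulation medium for ATG3 per ATG7 and ATG34 per ATG19, by strain, with lines through the means of 3 libraries. In WT the mean ATG3 ratio goes from 0.434 at 3 h to 15.2 at 7 h, and the mean ATG34 ratio from 0.786 at 0 h to 21.4 at 9 h.

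ATG19 and ATG34 are paralogs that lie next to each other on chromosome XV. Reads that match both could have been split or dropped by the counting, so their levels and their ratio are less certain than those of the other members. There were 0.81, 0.798 and 0.75 ATG34 counts per ATG19 count in WT at 0 h and 19, 23.9 and 21.2 at 9 h. At 9 h the ratio was 3.01, 3.58 and 3.67 in ime4 and 15.8, 16.1 and 9.6 in pho92, with no overlap between strains.

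Other genes of the pathway are given by lists, counted with the same test. Of all genes, 33.5% were higher and 43% lower in WT at 6 h against 3 h, 34% and 45.9% at 9 h against 6 h, and 43.6% and 34.5% in ime4 at 6 h. These shares are with TMM scaling. With total counts the median log2 fold change of all genes was -1.29 in WT at 6 h against 3 h and 1.35 in ime4 at 6 h. Of 15 genes for fusion with the vacuole, 9 were higher and 4 lower in WT at 6 h against 3 h (median 1.09), 12 were lower and 3 higher at 9 h against 6 h, and 4 were higher and 9 lower in ime4 at 6 h (median -1.13). With total counts the 6 h splits became 4 higher and 7 lower in WT and 7 higher and 4 lower in ime4. VAM7, a vacuolar SNARE gene, rose by 2.50 ± 0.26 in WT between 3 and 6 h and was lower in ime4 at 6 h by -2.97 ± 0.26, each under both scalings. Of 16 genes for partners of the kinase complexes and for cargo, 3 were higher and 8 lower in WT at 6 h, a share of lower genes near that of all genes, and 1 and 13 with total counts, with IRS4, a regulator of Atg17 recruitment, at 3.33 ± 0.27. Of 21 genes of the TORC1 and protein kinase A pathways, 5 were higher and 14 lower in WT at 6 h, and 0 and 20 with total counts, and TCO89, a TORC1 subunit gene, was at -1.39 ± 0.10.

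Of 16 genes for transcriptional regulators of ATG genes, 4 were higher and 11 lower in WT at 6 h against 3 h, beside 33.5% and 43% of all genes, and 1 and 12 with total counts. In ime4 at 6 h 9 of the 16 were higher and 4 lower, beside 43.6% and 34.5% of all genes, and 14 and 0 with total counts. UME6, which encodes a repressor of ATG8 in growing cells, was higher in ime4 than in WT at 6 h by 2.19 ± 0.17, and by 3.36 with total counts. SIN3 was lower there by -1.37 ± 0.17 with TMM only. RIM15, a kinase gene that acts upstream of Ume6, rose in WT by 1.48 ± 0.15 between 3 and 6 h, and was lower in ime4 at 6 h by -1.07 ± 0.14 with TMM only. The part of these regulators in the ATG levels was not tested. DAL80, a GATA repressor gene, rose by 2.84 ± 0.27 in WT between 0 and 2 h. Of 9 genes listed for vacuolar hydrolases, 8 were lower and 0 higher in WT at 3 h against 2 h, beside 29.3% and 36.3% of all genes. With total counts 5 were lower and 1 higher. Among the lower ones were ATH1 at -1.96 ± 0.17 and APE3 at -1.81 ± 0.16. The list included NTH1, a neutral trehalase gene whose product is not a vacuolar enzyme. NTH1 was at -1.19 ± 0.12 with TMM and -0.83 with total counts, and is in both counts of lower genes.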

How the data were processed

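Polyadenylated RNA was sequenced from 63 libraries, 3 biological replicates for each of 3 strains and 7 times, as stranded 50-nt single reads per the labels' protocols. The submitters' processing notes name bcl2fastq 2.17.1.14, TopHat2 2.0.14, Bowtie, HTSeq 0.6.1, R 3.5.1 and DESeq2 1.22.1. The alignment build, whether HTSeq counted by strand and how it treated reads with several matches are not stated in the labels or notes used here. The authors deposited raw counts per gene, and the tests start from these counts. The deposited table also holds a normalized signal and the same signal per kb of gene, which were not tested. The authors' deposited log2 fold changes and the deposited p-values of their comparisons were used only to count calls.

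Genes were filtered with filterByExpr (minimum count 10), which kept 5822 of 6088, and were fitted with edgeR 4.0.16 (R 4.3.3, quasi-likelihood F test, TMM scaling, 1 mean per strain and time over all libraries, 42 residual degrees of freedom). P-values were adjusted by Benjamini-Hochberg over all genes tested, with calls at 0.05. Log2 fold changes are given with an SE taken from the F statistic. Library totals ran from 12826747 to 33048881, with a median of 16834032. The lowest count of any ATG gene in any library was 13, for ATG10. Alternatives were DESeq2's size factors, total counts only, no filter, the replicate number as a block, the compared libraries only, DESeq2 1.42.0 and leaving out each replicate. Promoter sequences and coordinates are those of the RefSeq R64 genome, and positions were matched by gene start.

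ATG8, ATG1, ATG9 and ATG14, up to 4 called members per direction and comparison, the 6 members with the smallest adjusted p in each test of varying differences and the member with the highest level per kb in each role were named, giving 139 pairs of gene and comparison. Each list of other pathway genes is represented by at most 3 of its strongest calls. Other members named with values fall outside this rule and were chosen after their values were seen. The members and lists were chosen with earlier results of these data known.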

Additional observations from a re-analysis of the deposited data

Results flagged for a closer look

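The difference between ime4 and WT changed over the 7 times in 28 ATG genes, by an F test of the 6 contrasts among times in edgeR's quasi-likelihood fit. The adjusted p-values were smallest for ATG18 (4.53e-18), ATG27 (7.03e-18), ATG4 (2.3e-17), ATG3 (1.59e-16), ATG7 (2.19e-16) and ATG33 (2.7e-16). ATG3 and ATG4 were below WT at 6 h and above it at 9 h, while ATG7 was below WT at 3 h and above it at 9 h.

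For pho92 the difference from WT changed over time in 28 ATG genes as well. The adjusted p-values were smallest for ATG4 (6.24e-10), ATG33 (1.22e-09), ATG38 (1.34e-09), ATG2 (7.71e-09), ATG12 (1.53e-08) and ATG17 (5.15e-08). With total counts ATG12 was no longer called (adjusted p = 0.0519). Among all genes 96.3% were called in this test for ime4 and 90.6% for pho92.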

How the results depend on the processing

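With total counts in place of TMM scaling, 118 of the 139 named pairs of gene and comparison kept their direction and call, 19 kept the direction and lost the call, and 2 changed sign: ATG19 in WT at 3 h against 2 h (0.02) and ATG14 in ime4 at 6 h (0.07). The pairs were picked from calls made with TMM scaling, most by the size of the change, so the choice favoured their keeping the call. Of the 16 ATG genes lower in ime4 at 6 h with TMM, 7 were lower under both scalings. The number of ATG genes called with total counts was 0 for ime4 at 2 h, 3 at 3 h and 8 at 5 h, and 0 for pho92 at 2 h, 1 at 3 h and 5 at 5 h. With the compared libraries only, it was 0 for pho92 at 2 h, 12 at 3 h and 13 at 7 h, where 4 were higher and 9 lower, and at 9 h 8 were higher and 8 lower. DESeq2 called 8 for pho92 at 3 h. Shares of all genes were not counted in these alternative fits. Adding 8 genes that R64 names ATG, an alternative chosen after seeing the data, gave 2 for pho92 at 0 h, and 10 higher and 10 lower in WT at 3 h against 2 h. The filter on low counts changed none of the 139 pairs, and DESeq2's size factors and DESeq2 each lost 1, ATG9 in pho92 at 6 h.

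Leaving out replicates, the count called ran from 15 to 18 in WT at 2 h against 0 h, 8 to 13 at 3 h against 2 h, 18 to 20 at 6 h against 3 h and 22 to 26 at 9 h against 6 h. For ime4 it ran from 0 to 0 at 0 h, 0 to 6 at 2 h, 1 to 7 at 3 h, 13 to 15 at 5 h, 18 to 20 at 6 h, 26 to 28 at 7 h and 21 to 25 at 9 h. For pho92 it ran from 0 to 2 at 0 h, 0 to 5 at 2 h, 1 to 6 at 3 h, 4 to 11 at 5 h, 18 to 21 at 6 h, 15 to 23 at 7 h and 14 to 20 at 9 h. The count with a difference that varied over time ran from 27 to 28 for ime4 and from 24 to 28 for pho92. Fewer libraries make a call of any gene harder, and the share of all genes was not counted in these fits.

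Deviations of same-numbered libraries from their group means correlated by -0.592 to 0.372 between WT and ime4 (3 of 21 pairs over 0.1) and by -0.467 to 0.694 between WT and pho92 (13 of 21), with all 3 pairs over 0.1 for pho92 at 5 and 6 h. The library that correlated best had the same number in 4 of 21 and 10 of 21 cases. Between adjacent times of a strain 16 of 18 same-numbered pairs were over 0.1 in ime4, 10 of 18 in WT and 9 of 18 in pho92. Over the whole series the numbers were not taken to pair the strains. With the replicate block, 139 of 139 pairs kept direction and call, and the count called was 20 in WT at 2 h against 0 h, 20 in ime4 at 6 h, and 12 and 20 in pho92 at 5 and 6 h. The block gives a replicate number the same effect in all strains and times. It cannot cover an effect shared by the times of a single strain. The levels of ATG19 and ATG34 rest on how shared reads were counted, and that of ATG29 on the strand setting. Scaling sets the direction of many middle-sized changes at 6 and 7 h, and absolute amounts of RNA per cell were not measured in the files used here.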

Other observations

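Some genes that the R64 annotation names ATG stand under older names in the deposited table and were not among the 28. They were chosen after the data were seen. ATG39, a receptor gene for autophagy of the nucleus and endoplasmic reticulum, averaged 185 CPM in WT at 3 h and 1706 CPM at 6 h (log2 fold change 3.2 ± 0.23, and 2.07 with total counts), and 182 CPM in ime4 at 6 h (-3.23 ± 0.23 against WT, and -2.05). ATG40, a receptor gene for autophagy of the endoplasmic reticulum, averaged 2721 CPM in WT at 7 h, 225 CPM in ime4 (-3.6 ± 0.31, and -1.84 with total counts) and 748 CPM in pho92 (-1.86 ± 0.29, and -1.11). Others went the opposite way: in WT at 6 h against 3 h ATG36 was at -2.03 ± 0.22, ATG31 at -1.34 ± 0.16 and ATG42 at -1.0 ± 0.19, and in ime4 against WT at 6 h they were at 1.5 ± 0.22, 1.4 ± 0.16 and 0.91 ± 0.19, all called with TMM. ATG41, ATG44 and ATG45 were not called in WT at 6 h against 3 h (-0.05, -0.26 and 0.32).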
